A study of Mus musculus with 2 samples.

Results

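The 5 miRNA genes described here, whose precursors are made without the nuclear enzyme Drosha, were measured in total RNA of the mouse left cerebral cortex. They are Mir320 and Mir484, whose precursors carry a 5′ cap, and Mir702, Mir877 and Mir1224, which are classic mirtrons. The genes were chosen by symbol in GENCODE M21, and all 5 were found among the 2202 miRNA genes of the count files. The tissue came from male B6CASTF1/J mice, a first-generation hybrid of the B6 and CAST strains, at an age of 10 days. There was 1 group of 2 replicates, which the labels number as separate males of 1 strain-level donor entry. No treatment, other age or other tissue was analysed here, so the results are levels and the spread between the 2 libraries.

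Most miRNAs are cut from a long primary transcript by Drosha and its partner DGCR8, and the released hairpin is then cut by Dicer. A mirtron reaches the same hairpin stage by splicing: a short intron is spliced out, its lariat is opened, and the intron itself folds into the Dicer substrate. A capped precursor starts at its own transcription start, so that its 5′ end is the capped end of the transcript and needs no Drosha cut. All 5 genes then share the later steps, Dicer cleavage and loading into Argonaute.

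In replicate 1, 2677910 reads fell on the sense strand of a miRNA hairpin, and in replicate 2, 1750076, which were 29.5% and 23.5% of all reads. Reads mapped to more than 1 place, 38.2% and 28.3% of all reads, count for no gene. The share of unmapped reads was 25.5% for replicate 1 and 42.4% for replicate 2, and the part of this gap in the differences between the libraries below was not tested. A count of 3 reads corresponded to 1.12 and 1.71 CPM (counts per 1000000 assigned reads), and 442 genes reached 2 CPM in both libraries, which is called detected here. A list of 12 brain miRNA genes held 4.46% and 3.49% of assigned reads, with 8 genes detected, and the 4 not detected were Mir9-2 and the 3 copies of Mir124a, at 0 to 3.73 CPM. A read that maps to more than 1 copy counts for no gene, and the part of this in these low values was not tested. A list of 14 genes of muscle, liver, pancreas and epithelium held 0.0294% and 0.0313%, with 10 genes detected. No read was counted for either copy of Mir1a or of Mir133a, which are muscle genes.

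The hairpins are shown so that their ends can be set against those of a spliced intron. RefSeq (GRCm38.p6) matched 4 of the 5 genes, all but Mir320. Each hairpin is written 5′ to 3′, with the annotated mature strands in capitals. Mir877 and Mir1224 begin with GU and end with AG, the first and last bases of a spliced intron. Of 997 distinct RefSeq mouse hairpins, 30 (3.01%) begin and end with these letters. The Mir702 hairpin begins with 9 bases that lie in the exon, and its 5p strand then begins with the GU of the intron. The Mir484 hairpin has neither end.
Mir484: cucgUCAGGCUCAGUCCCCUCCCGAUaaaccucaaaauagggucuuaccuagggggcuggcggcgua
Mir702: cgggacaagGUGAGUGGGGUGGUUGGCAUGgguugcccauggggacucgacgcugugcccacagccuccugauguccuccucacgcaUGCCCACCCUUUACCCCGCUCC
Mir877: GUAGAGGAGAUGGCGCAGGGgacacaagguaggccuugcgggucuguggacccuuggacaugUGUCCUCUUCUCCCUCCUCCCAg
Mir1224: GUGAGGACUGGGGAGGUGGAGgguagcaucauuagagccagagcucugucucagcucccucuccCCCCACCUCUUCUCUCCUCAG

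The mature strands follow, with the seed (bases 2 to 8, which pair with target mRNAs) in capitals. The 7 strands, none of them from Mir320, hold 7 distinct seeds, so no 2 of these strands share one. Among 1679 mature names in the RefSeq table, 1 other miRNA shares a seed with any of them: miR-3102-5p has the seed of miR-702-5p.
miR-484: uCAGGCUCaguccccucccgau
miR-702-5p: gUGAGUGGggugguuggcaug
miR-702-3p: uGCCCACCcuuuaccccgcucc
miR-877-5p: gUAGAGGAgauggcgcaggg
miR-877-3p: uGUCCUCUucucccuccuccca
miR-1224-5p: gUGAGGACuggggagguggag
miR-1224-3p: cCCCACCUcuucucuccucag

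The arms of the 3 mirtrons differ in base content. Purines make up 66.7% of miR-702-5p, 80.0% of miR-877-5p and 81.0% of miR-1224-5p, against a median of 54.5% over 696 distinct 5p strands, of which 22.8% hold as many as miR-702-5p. Pyrimidines make up 81.8% of miR-702-3p, 90.9% of miR-877-3p and 85.7% of miR-1224-3p, against a median of 59.1% over 705 distinct 3p strands. Only 4.40% of those 3p strands hold as many as miR-702-3p. The 3′ end of an intron carries the polypyrimidine tract that the splicing machinery reads. Counts were made per hairpin, so they do not tell which arm was sequenced.

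The predicted folds of the 4 hairpins (RNAfold) lay on both sides of the median hairpin. Per 100 bases, the minimum free energy was -36.7 kcal/mol for Mir484, -43.5 for Mir702, -42.9 for Mir877 and -50.4 for Mir1224, against a median of -40.7 over the 997 hairpins. Mir1224 was the most stable per base of the 4, and 15.5% of all hairpins were as stable or more so. Mir484 was the least stable, and 66.1% were as stable or more so. No stretch of 20 bases of these 4 hairpins occurs in another RefSeq hairpin. Copies elsewhere in the genome were not searched for.

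In M21, on assembly mm10, the mirtron hairpins of Mir877 and Mir1224 coincide with an annotated intron to the base. Mir877 lies on the minus strand of chromosome 17 at 35960730 to 35960814 and fills intron 12 of 22 of Abcf1, which encodes an ATP-binding protein that acts in translation. Mir1224 lies on the plus strand of chromosome 16 at 20604452 to 20604536 and fills the last intron of Vwa5b2 (intron 22 of 22 in 1 annotated coding transcript, 18 of 18 in another). Both introns are 85 bases long, and 2.46% of 223282 annotated introns of protein-coding transcripts are as short or shorter. Mir702 lies on the plus strand of chromosome 5 at 136991433 to 136991541, over intron 13 of 18 of Plod3, which encodes a lysyl hydroxylase of collagen. That intron is 102 bases long, and the annotated hairpin starts 9 bases before it and ends 2 bases short of its end. The 5p strands of all 3 mirtrons start on the first base of the intron. The 3p strand ends on the last base of the intron in Mir1224, 1 base before it in Mir877 and 2 bases before it in Mir702.

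**Figure D1:**
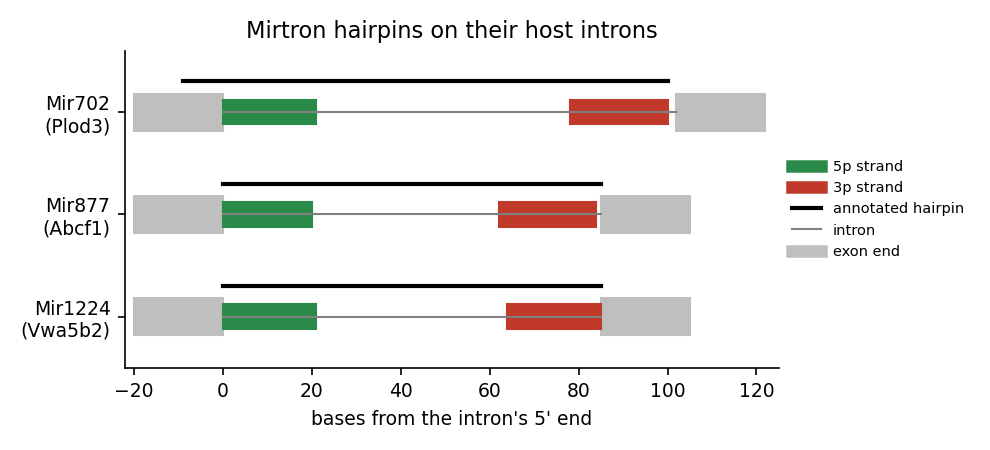
Hairpins of the 3 mirtrons on their host introns. The x axis gives bases from the 5′ end of the intron, grey blocks are the neighbouring exons (only their near ends are drawn), black bars the annotated hairpins, and green and red blocks the 5p and 3p mature strands. The 5p blocks of Mir702, Mir877 and Mir1224 all begin at the intron start, and the 3p blocks end 2, 1 and 0 bases before the intron end.

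Mir320 and Mir484 lie in no annotated intron or exon of another gene on their own strand. Mir320 lies on the plus strand of chromosome 14 at 70443510 to 70443591. The nearest start of a protein-coding transcript on the opposite strand is that of Polr3d, a subunit of RNA polymerase III, 63 bases away. Mir484 lies on the plus strand of chromosome 16 at 14159626 to 14159692, 359 bases from a start of Marf1 on the opposite strand. The nearest start of another transcript on the strand of Mir484 is that of Nde1, 3649 bases away, and for Mir320 it is that of Phyhip, 13966 bases away. One annotated Marf1 exon on the opposite strand partly overlaps the Mir484 hairpin. Neither hairpin starts within 30 bases of an annotated start of another transcript on its own strand, as 55 of the 2202 hairpins do. A protein-coding start on the opposite strand within 500 bases, a window set after these distances had been seen, was found for 63 hairpins (2.86%). Of these 63, 7 were detected (11.1%), against 20.1% of all hairpins. Mir320 and Mir484, whose distances were known when the window was set, had the highest levels of the 7. The next was Mir8114 at 24.05 ± 0.739 CPM (SD, n = 2).

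All 5 genes were detected, with Mir320 the most abundant. Mir320 had 9391 reads (3507 CPM) in replicate 1 and 7721 reads (4412 CPM) in replicate 2, a mean of 3959 ± 639.9 CPM (SD, n = 2). Mir484 had 5473 reads (2044 CPM) in replicate 1 and 3493 reads (1996 CPM) in replicate 2, a mean of 2019.8 ± 33.8 CPM. The 2 libraries thus gave nearly equal levels of Mir484, while Mir320 was higher in replicate 2.

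Among the mirtrons, Mir877 had 1805 reads (674 CPM) in replicate 1 and 1335 reads (763 CPM) in replicate 2, a mean of 718 ± 62.8 CPM (SD, n = 2). Mir1224 had 2161 reads (807 CPM) in replicate 1 and 963 reads (550.3 CPM) in replicate 2, a mean of 679 ± 182 CPM. Mir702 had 1087 reads (406 CPM) in replicate 1 and 424 reads (242 CPM) in replicate 2, a mean of 324 ± 116 CPM. Mir702 and Mir1224 were higher in replicate 1, and Mir877 was higher in replicate 2. The counting error was smaller than these differences: the 95% Wilson interval of Mir702 was 382 to 431 CPM in replicate 1 and 220.3 to 266 CPM in replicate 2.

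**Figure D2:**
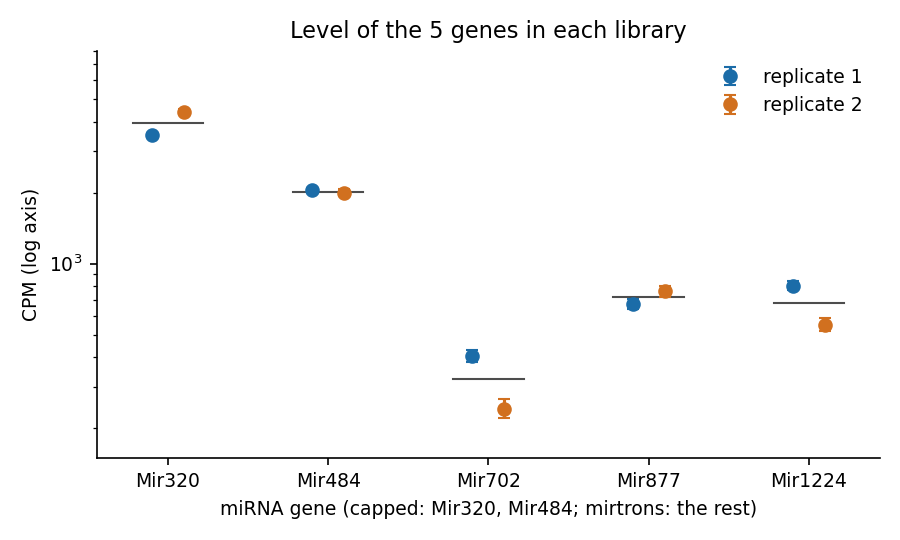
Level of each gene in each library. The y axis is CPM on a log scale, points are the libraries with their 95% Wilson intervals (counting error only), and grey lines are the means of 2 libraries. Mir320 and Mir484, with means of 3959 and 2019.8 CPM, lie above all 3 mirtrons in both libraries, and the ranges of Mir877 and Mir1224 overlap.

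The order of the levels was Mir320, Mir484, Mir877, Mir1224 and Mir702 by mean CPM. The ranges over the 2 libraries were separate for 3 of the 4 neighbouring pairs in this order. The exception was Mir877 and Mir1224, whose ranges overlapped and whose order changed between the libraries. The labels give a size range below 30, with no unit, which fits a mature strand, so that a read covers a mature strand once and counts were not divided by length. Per 100 bases of hairpin the levels were 4828 ± 780.4 CPM for Mir320, 3015 ± 50.5 for Mir484, 845 ± 73.9 for Mir877, 798 ± 214 for Mir1224 and 297 ± 106 for Mir702, in the same order.

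Among all miRNA genes, Mir320 ranked 47 by mean CPM, Mir484 ranked 78, Mir877 ranked 126, Mir1224 ranked 129 and Mir702 ranked 162. All 5 lay above the median detected gene, which stood at 89.4 CPM. Together the 5 genes took 0.770% ± 0.0372 of assigned reads (SD, n = 2). The share was 0.744% in replicate 1, with a 95% Wilson interval of 0.734 to 0.754%. It was 0.796% in replicate 2, with an interval of 0.783 to 0.810%. Mir320 alone gave 47.2% of the reads of the 5 genes in replicate 1 and 55.4% in replicate 2. Mir320 and Mir484 together had 2.94 times the reads of the 3 mirtrons in replicate 1 and 4.12 times in replicate 2.

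**Figure D3:**
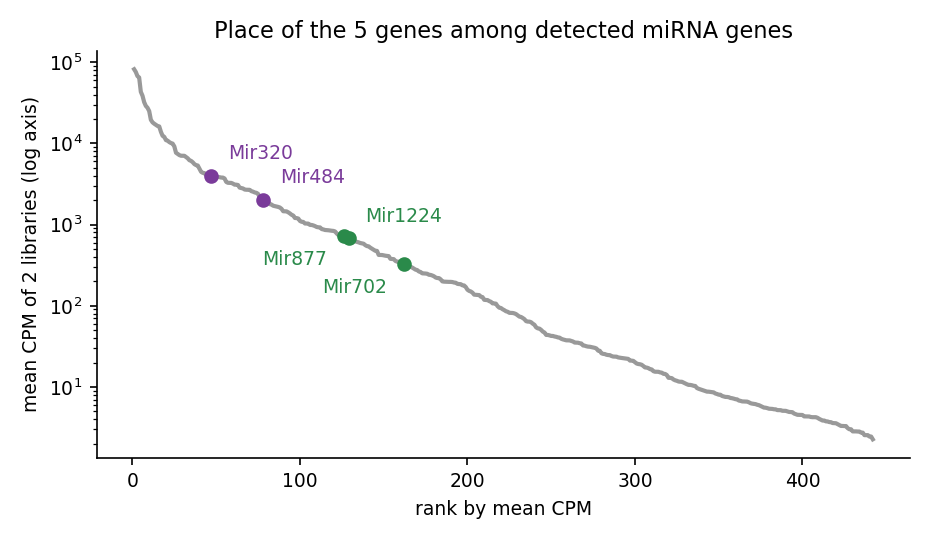
Place of the 5 genes among the 442 detected miRNA genes. The x axis is the rank by mean CPM and the y axis the mean CPM of 2 libraries on a log scale, with the capped Mir320 and Mir484 in purple and the mirtrons in green. The 5 genes fall between ranks 47 and 162, in the upper part of the curve.

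With 1 group of 2 libraries no expression pattern could be matched, so the genes most like each member were taken as those next above and next below it in mean CPM. Mir320 stood between Mir30a at 4008 ± 718 CPM and Mir296 at 3913 ± 2038 CPM (SD, n = 2 throughout). Mir484 stood between Mir708 at 2033 ± 257 CPM and Mir485 at 1972 ± 288 CPM. Mir877 stood between Mir301 at 728 ± 958 CPM and Mir455 at 704 ± 405 CPM. Mir1224 stood between Mir1981 at 692 ± 62.4 CPM and Mir700 at 668 ± 159 CPM. Mir702 stood between Mir1188 at 331 ± 55.2 CPM and Mir3102 at 317 ± 23.3 CPM. The ranges over the 2 libraries overlapped in all 10 pairs, which the choice of neighbours by mean CPM all but fixes. The spread was widest for Mir296 and Mir301, and Mir301 had 1406 CPM in replicate 1 and 50.9 CPM in replicate 2.

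None of the 5 genes passed the test of a difference between the 2 libraries, in which 12.0% of 542 tested genes passed. For each gene a two-sided Fisher's exact test set its reads against the remaining assigned reads, and a gene passed if its Benjamini-Hochberg adjusted p was under 0.05 and its level differed by 1 log2 unit or more. It compares these 2 libraries, not conditions or animals in general. Without the minimum on the ratio, 4 of the 5 genes had an adjusted p under 0.05, against 42.3% of all tested genes. The same 4 had an unadjusted p under 0.05. Many tested genes had far fewer reads than the 5 genes, and with fewer reads a difference of the same size passes less easily. The 42.3% is thus no share among genes of like level. At the depth of the 5 genes small differences pass, and the size of the ratio carries the comparison.

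Each log2 ratio sets replicate 1 over replicate 2 after adding 0.5 reads to both counts, and its 95% interval is exact binomial and covers counting error. Mir702 had the largest, 0.74 (interval 0.58 to 0.91, adjusted p = 8.52e-20 by the exact test), a level 1.68 times as high in replicate 1. Mir1224 had 0.55 (0.44 to 0.66, adjusted p = 4.22e-23 by the exact test), a level 1.47 times as high in replicate 1. Mir320 had -0.33 (-0.37 to -0.29, adjusted p = 3.47e-49 by the exact test) and Mir877 had -0.18 (-0.28 to -0.08, adjusted p = 0.00199 by the exact test). Mir484 had 0.034 (-0.027 to 0.096, adjusted p = 0.406 by the exact test), an interval that holds no difference above 0.096 in size. The sign for Mir484 turned with other library totals, to -0.020 with TMM and -0.034 with DESeq2 size factors.

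These ratios were of the size common between the libraries. The median size of the log2 ratio was 0.33 over the 5 genes, 0.46 over all genes tested and 0.29 over the 194 genes at 100 to 10000 CPM. Among those 194 genes, 17.0% had a larger ratio than Mir702 and 92.8% a larger one than Mir484. The median signed ratio was 0.034 over the 5 genes and 0.091 over all genes tested.

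**Figure D4:**
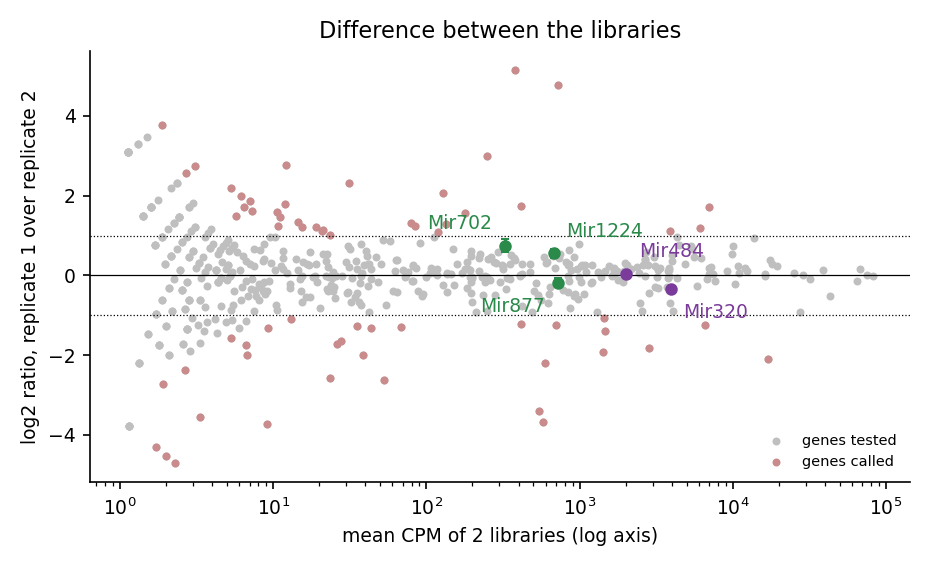
Difference between the libraries for all 542 genes tested. The x axis is the mean CPM on a log scale and the y axis the log2 ratio of replicate 1 over replicate 2, with genes past the threshold in pink, other genes in grey, dotted lines at a ratio of 1 in size and exact 95% counting intervals on the 5 genes. Mir702 at 0.74 and Mir1224 at 0.55 lie above 0, Mir320 at -0.33 and Mir877 at -0.18 below it, and all lie inside the dotted lines.

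The ratio of 1 member to another needs no library total, and it restates the log2 ratios above as differences between them, so it is given as a description with no test. Mir877 had 0.835 reads per read of Mir1224 in replicate 1 and 1.39 in replicate 2, a log2 change of -0.73. Mir702 had 0.602 reads per read of Mir877 in replicate 1 and 0.318 in replicate 2, a log2 change of 0.92. Mir702 had 0.503 reads per read of Mir1224 in replicate 1 and 0.440 in replicate 2, a log2 change of 0.19. Of the 10 pairs of members, Mir320 and Mir702 had the largest change and the only one of 1 log2 unit or more: Mir320 had 8.64 reads per read of Mir702 in replicate 1 and 18.2 in replicate 2, a log2 change of -1.08.

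The mirtrons were then set beside other hairpins of the same geometry. In M21, 23 of the 2202 hairpins have both ends within 5 bases of the ends of 1 annotated intron, 22 of them to the base. Mir877 and Mir1224 are among the 23, and Mir702 is not, because of its 9 bases of exon. Of the 23, 10 were detected (43.5%), against 20.1% of all hairpins, and the 23 took 0.278% ± 0.0269 of assigned reads (SD, n = 2). By mean CPM Mir877 came first, then Mir1981 in Marc2 and Mir1224, but the ranges of the 3 genes overlapped and their order was reversed in replicate 1, with 807 CPM for Mir1224, 736 for Mir1981 and 674 for Mir877. Mir877 and Mir1224 together gave 49.9% of the reads of the 23 in replicate 1 and 50.8% in replicate 2. Mir3102, in Arhgef17, came next at 317 ± 23.3 CPM, and Mir7080, in Cpne7, followed at 149.9 ± 47.9 CPM.

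**Figure D5:**
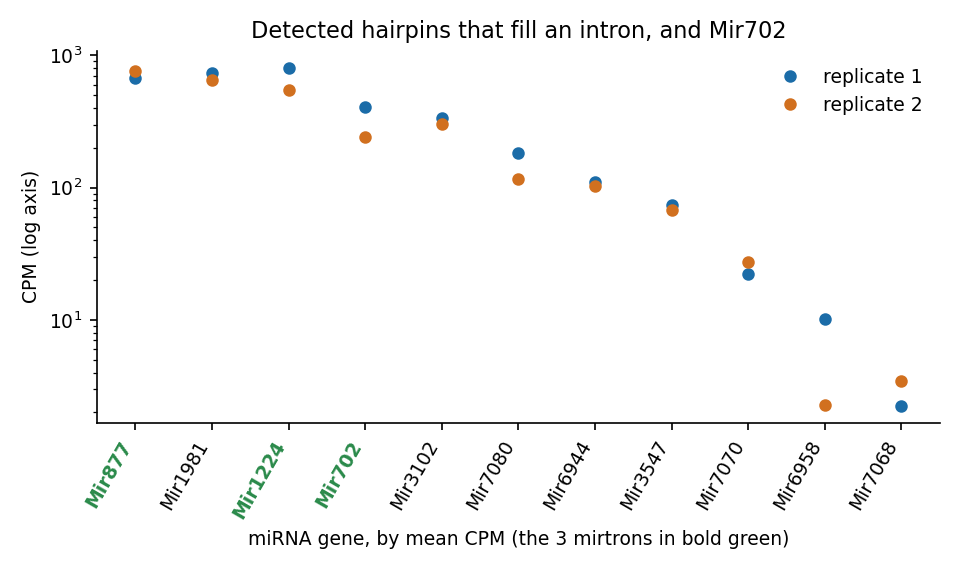
Levels of the 10 detected hairpins that fill an annotated intron, and of Mir702. The y axis is CPM on a log scale, each point is 1 library, and genes run from left to right by mean CPM. Mir877, Mir1981 and Mir1224 lie between 550.3 and 807 CPM, Mir702 and Mir3102 lie next, and the remaining genes lie at or below 184 CPM.

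The geometry can also be read from the mature strand. Among 1018 listed hairpins with a mature strand in the RefSeq table, 24 have one that starts on the first base of an intron, Mir702, Mir877 and Mir1224 included, and 13 of the 24 were detected. Mir668, on the first base of an annotated intron of the noncoding RNA gene Mirg, was the most abundant of these in both libraries, at 3071 ± 693 CPM (SD, n = 2). By mean CPM Mir877 was the second, Mir1224 the fourth and Mir702 the fifth, with the overlap of Mir877 and Mir1224 given above. Mir3102, which ranked next below Mir702, is also on this list, and it is the gene whose 5p strand has the seed of miR-702-5p. It had 333 CPM in replicate 1 and 301 CPM in replicate 2, so the levels of the 2 genes with this seed overlapped over the libraries.

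The 3 mirtrons lay above the numbered series Mir6896 to Mir7094, which holds predicted mirtrons. Of its 196 listed genes, 15 have both hairpin ends within 5 bases of the ends of an annotated intron. Mir702, Mir877 and Mir1224 averaged 324, 718 and 679 CPM, against a median of 6.18 CPM over the 49 detected genes (25.0%) of the 196 listed in that series. Its most abundant genes were Mir7080, Mir6944 at 107 ± 4.76 CPM and Mir7047 at 31.4 ± 3.16 CPM (SD, n = 2). The 3 mirtrons together took 0.172% ± 0.0234 of assigned reads, against 0.0783% ± 0.00736 for all 196 genes. All 3 lay above the highest gene of the series in both libraries. Other hairpins that lie inside an intron and touch no exon on their strand numbered 630, without that series and the 23 hairpins that fill an intron. One end of such a hairpin may still lie at a splice site. Of the 630, 165 were detected (26.2%), with a median of 178 CPM over those detected and up to 67357 CPM (Mir139). These are descriptions of classes, and no test was made between them.

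No read was counted on the strand opposite to any of the 5 hairpins in either library, which allows at most 1.12 CPM in replicate 1 and 1.71 CPM in replicate 2 (3 reads). Antisense reads were present in both libraries for 43 other hairpins. The unstranded and the stranded columns held the same number of reads for each of the 5 genes.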

How the data were processed

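The deposited values are raw counts of reads for each miRNA gene in 2 libraries, made with mm10 and GENCODE M21 per the text files deposited beside them. Aligner, counter and adapter trimming: not given in the sources used here. The tables have counts without regard to strand, on the gene's strand and on the opposite strand, as the values show. The sense counts were used. The 4 rows that name no gene (70.5% of reads in replicate 1 and 76.5% in replicate 2) were left out of totals and tests.

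CPM are sense reads divided by the sum over the 2202 genes. Genes that reached 2 CPM in at least 1 library were tested (Fisher's exact test, Benjamini-Hochberg over all 542 genes tested, log2 ratio of 1 or more in size). The test was tried on simulated data with known changes and counting error only, which cannot show how it behaves when libraries vary further. The labels number the samples as separate males, so the spread includes animals and any technical difference. Intervals and the 3-read limit cover counting error only: copies made by PCR may be counted more than once. CAST alleles that differ from mm10 were not taken into account.

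Intron ends and transcript starts came from M21 and sequences from RefSeq tables of GRCm38.p6, matched by symbol. Hairpins were folded with RNAfold 2.7.2. Python 3.11.15, scipy 1.17.1 and, for alternative totals, edgeR 4.0.16 (TMM) and DESeq2 1.42.0 (size factors) were used. The members, lists and classes were chosen with earlier results of these data known. Named were the 5 members, the genes next above and below each in mean CPM, and up to 3 leading genes of a class. Mir206, Mir3102, Mir1981 as a class member beside its rank, Mir7080 within the geometry class and the genes near opposite-strand starts were named after their values were seen.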

Additional observations from a re-analysis of the deposited data

How the results depend on the processing

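Leaving out 1 of 2 libraries returns the value of the other library and is no check of stability, so it is not counted here. Among the other recomputed levels, shares, counts and orders, 36 stayed within the spread or within 1.5 times the count and 10 did not. Among recomputed log2 ratios of the 5 genes, 29 kept sign and call, 2 changed sign and 4 passed once no minimum was set. The share of the 5 genes was 0.823% with the unstranded counts, whose totals are smaller (2497056 and 1641193 reads), and 0.203% when all reads entered the total. With all reads in the total the levels were 1036 CPM for Mir320, 536 for Mir484, 88.3 for Mir702, 189 for Mir877 and 184 for Mir1224, and with the unstranded counts Mir484 had 2160.1 CPM. The count of members past the threshold was 0 under every alternative but 1: without a minimum on the ratio it was 4 of 5, and 229 of all 542 genes. The log2 ratio of Mir484 changed sign, to -0.020 with TMM totals and -0.034 with DESeq2 size factors. Without replicate 1 the share of the 5 genes was 0.796% and without replicate 2 it was 0.744%. The count of detected hairpins with mirtron geometry was 10, and 8 to 13 under the alternatives. No paired analysis was possible because the labels give 1 group. With 2 libraries no test could leave 1 out, and reads mapped to more than 1 place limit every level to uniquely placed reads.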

Other observations

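Another pair of genes whose hairpins come from a structure other than a Drosha-cut primary transcript, Mir664 and Mir1839, known as miRNAs derived from small nucleolar RNAs, was detected in both libraries. Mir1839 had 4433 reads (1655 CPM) in replicate 1 and 2878 reads (1644.5 CPM) in replicate 2, a mean of 1649.9 ± 7.70 CPM (SD, n = 2). Mir664, in an intron of Rab3gap2, had 109 CPM in replicate 1 and 103 CPM in replicate 2, a mean of 106 ± 3.71 CPM. Mir484 lay above Mir1839 and the 3 mirtrons below it in both libraries, and all 3 mirtrons lay above Mir664 in both. The 3 mirtrons took 0.172% ± 0.0234 of assigned reads and this pair 0.176% ± 0.00114.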
